A study of Mus musculus with 12 samples.

Results

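Whole lungs of wild-type C57BL/6 mice at postnatal day 5 (P5) and postnatal day 8 (P8) were compared, using the libraries whose titles and age labels name these ages. They are 6 of the 12 RNA-seq libraries of the series, 3 at P5 and 3 at P8, and the other libraries come from embryonic stages E15.5 and E18.5. No animal carried an allele or received an agent according to the labels and methods, and mice of both sexes were used. Each library came from a whole flash-frozen lung, and all replicates of an age were litter mates, so litter and age cannot be told apart and p-values measure only the spread between these samples. Counts on the 16152 deposited genes summed to between 41337443 and 53410024 per P5 or P8 library.

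Alveolarization divides the terminal air sacs of the newborn lung into alveoli. Secondary septa grow out of the sac walls, with elastin laid down by myofibroblasts at their tips and a double layer of capillaries inside, while flat alveolar type 1 (AT1) cells carry gas exchange and alveolar type 2 (AT2) cells secrete surfactant. Over the same days the airway epithelium matures, resident macrophages settle in the air spaces and the connective tissue between them, and the mesothelium covers the growing surface of the organ. The interval from P5 to P8 lies near the start of this process in the mouse.

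All 6 libraries held the surfactant gene *Sftpc*, a defining marker of lung, at 9644 to 13186 CPM, where CPM are counts scaled to the mapped reads of a library. The P8 libraries did not all hold the same other tissues. Genes of thymocytes, the developing T cells of the thymus, summed to 112, 122 and 130 CPM in P5 replicates 1 to 3, and to 465, 824 and 133 CPM in P8 replicates 1 to 3. Genes of stratified squamous epithelium, the lining of the oesophagus, summed to 5.51, 6.28 and 7.40 CPM at P5 and to 849.5, 653 and 9.70 CPM at P8. P8 replicates 1 and 2 stood far above the other libraries for both tissues, and P8 replicate 3 lay next to the P5 libraries.

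Skeletal muscle genes were high in P8 replicate 1 (825 CPM), in P8 replicate 2 (215 CPM) and also in P5 replicate 3 (251 CPM), against 15.1 to 21.1 CPM in the other libraries. Fat genes ranged from 6.13 to 162 CPM at P5 and were at 436, 853 and 24.8 CPM in P8 replicates 1 to 3. Liver genes kept another order, with 8.78 to 10.5 CPM at P5 and 29.2, 174 and 66.9 CPM at P8, so that P8 replicate 3 lay above P8 replicate 1 and far above every P5 library. Sex differed along the same lines: *Xist*, expressed from the inactive X chromosome of females, was at 464 CPM in P5 replicate 1 and at 470.4 and 540 CPM in P8 replicates 1 and 2, and at 1.43 to 11.5 CPM in the remaining libraries, whose Y-linked *Ddx3y* was at 91.3 to 98.3 CPM. P8 replicate 3 is therefore the only P8 library with *Ddx3y* at that level, and sex and neighbouring tissue cannot be told apart within P8. The results below are given with all 3 P8 libraries and, for the members they turn on, with P8 replicate 3 as the only P8 library.

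**Figure D1:**
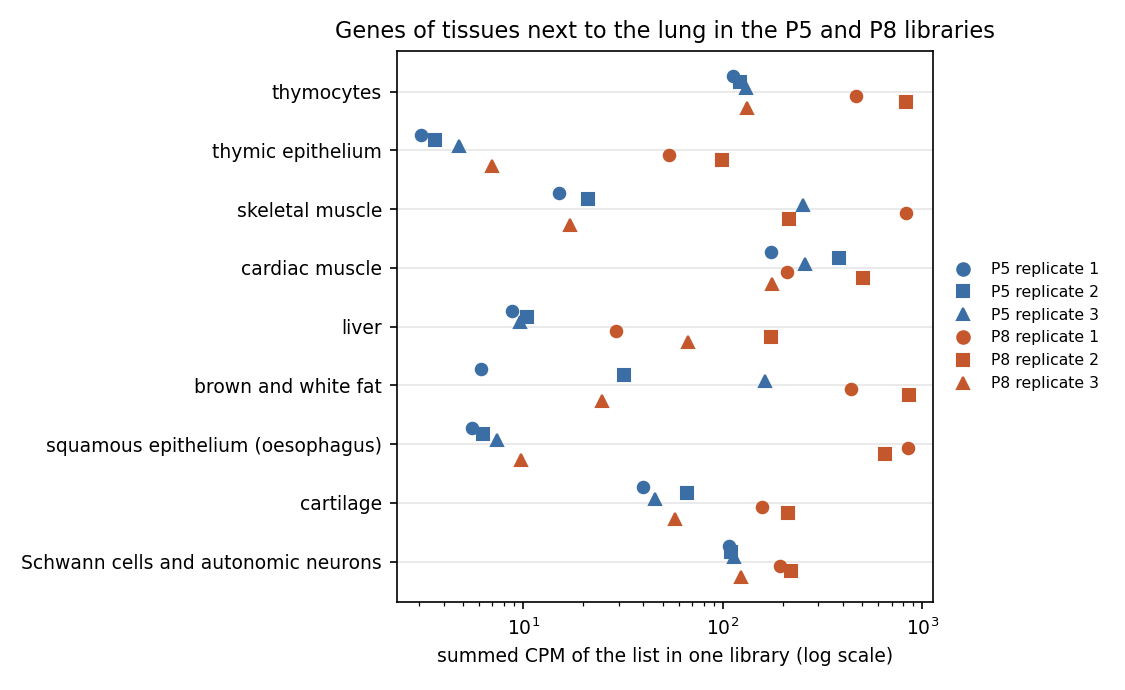
Summed CPM (log scale) of gene lists for tissues next to the lung in each of the 6 libraries, with P5 in blue, P8 in orange and the symbol giving the replicate. For thymocytes, thymic epithelium, fat, squamous epithelium, cartilage and nerve, P8 replicates 1 and 2 lie to the right of all P5 libraries and P8 replicate 3 does not follow them; for liver P8 replicate 3 lies between the other P8 libraries.

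Of 15994 genes tested, 460 were higher at P8 (2.88%) and 14 were lower (0.0875%), 2.96% in all, by both cutoffs used for a call, an edgeR false discovery rate (FDR) under 0.05 and an absolute log2 fold change above 1. By the FDR alone, called passing the test below, 1559 genes were higher (9.75%) and 1313 were lower (8.21%). In 20.8% of all genes tested every P8 library was above every P5 library, and in 16.3% every P8 library was below.

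The 460 genes called higher fell into 401 for which every P8 library was above every P5 library, and 59 for which P8 replicates 1 and 2 were above all P5 libraries and P8 replicate 3 was not. None was above P5 only in replicates 1 and 3 or only in replicates 2 and 3. Among all genes tested, 1403 were above P5 only in P8 replicates 1 and 2, against 254 for replicates 1 and 3 and 1001 for replicates 2 and 3. All 14 genes called lower were below P5 in every P8 library.

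A place in the set of 401 did not mean equal levels. The mean CPM of P8 replicates 1 and 2 was within 1.5-fold of replicate 3 for 228 of the 401 genes and over 2-fold above it for 108, with a median ratio of 1.319. For the set of 59 the median ratio was 6.445, which follows in part from the split, since replicate 3 had to lie at or under P5. The ratio of the genes called also with P8 replicate 3 alone, given below, depends in the same way on how they were picked. With P8 replicate 3 as the only P8 library, where the fit assumes that a lone library varies like the other groups, 46 of 15763 genes were called higher (0.292%) and 5 lower (0.0317%). Of the 401 genes, 345 could be tested in that way and 43 were called in both fits, with a median ratio of replicates 1 and 2 to replicate 3 of 0.966.

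**Figure D2:**
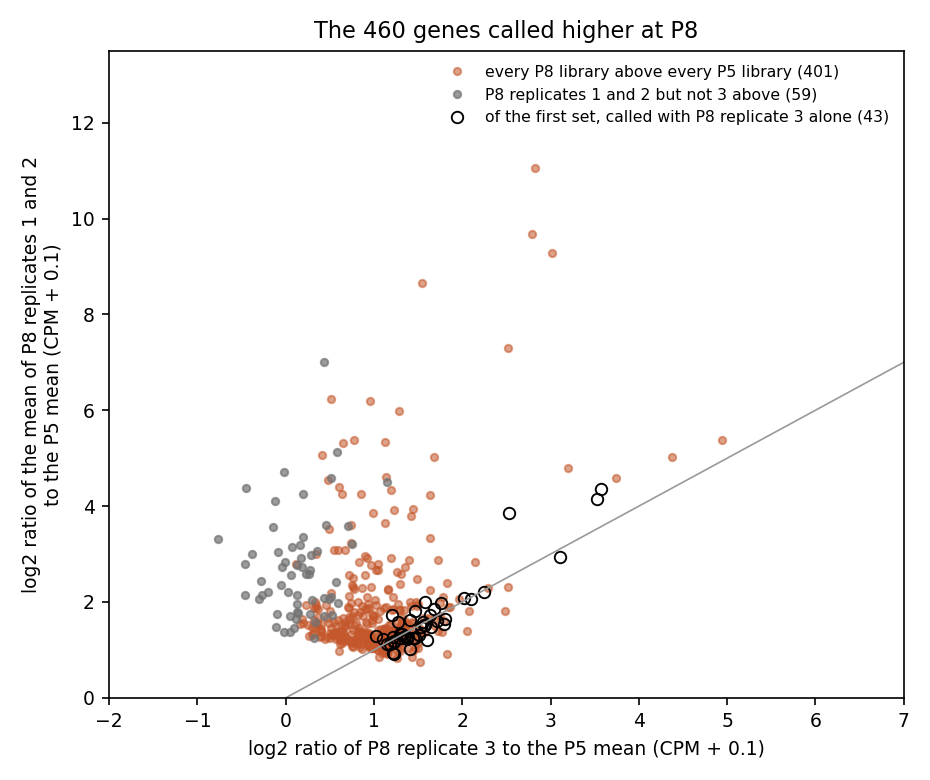
Each point is 1 of the 460 genes called higher at P8, with the log2 ratio of P8 replicate 3 to the P5 mean on the x axis and the log2 ratio of the mean of P8 replicates 1 and 2 to the P5 mean on the y axis, after adding 0.1 CPM. The line marks equal ratios: the 43 ringed genes, called also with P8 replicate 3 alone, lie near it, and the 59 grey genes rise only along the y axis.

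Elastin rose at P8, with the largest log2 fold change of the elastic fibre genes that passed the test. *Eln* (ENSMUSG00000029675), which encodes the elastic core of the fibre, was at 2298, 3045 and 2257 CPM in P5 replicates 1 to 3 and at 5424, 6846 and 5872 CPM in P8 replicates 1 to 3. All P8 libraries were above all P5 libraries, replicate 3 included, and the log2 fold change was 1.24 ± 0.16 (SE, edgeR FDR = 0.00117). It was 1.19 with P8 replicate 3 alone (edgeR FDR = 0.0287). In whole-lung RNA, more cells of a type and more RNA per cell cannot be told apart, for this gene and for those that follow.

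Of 21 elastic fibre genes tested, 6 passed the test as higher and none as lower, 1 of them also by the fold change cutoff, and the median log2 fold change of the list was 0.07. *Efemp1*, a fibulin of the fibre surface, was at 24.7, 23.5 and 22.8 CPM at P5 and 38.9, 42.3 and 51.1 CPM at P8, without overlap (log2 fold change 0.88, edgeR FDR = 0.0021, and 0.020 with P8 replicate 3 alone). *Ltbp4*, which holds latent TGF-beta and takes part in elastic fibre assembly, rose from between 315 and 341 CPM to between 476 and 491 CPM (log2 fold change 0.57, edgeR FDR = 0.0074), and it did not pass with P8 replicate 3 alone (edgeR FDR = 0.11). *Fbln2*, *Ltbp1* and *Ltbp3* were the other members that passed, with log2 fold changes of 0.90, 0.39 and 0.36, and each was lost when single libraries were left out. The highest edgeR FDR was 0.093 for *Fbln2* without P8 replicate 2, 0.0908 for *Ltbp1* without P5 replicate 3 and 0.0501 for *Ltbp3* without P5 replicate 1. *Fbln2* also did not pass without P5 replicate 1, 2 or 3 or P8 replicate 1 (0.0672, 0.0637, 0.0909 and 0.0572), nor *Ltbp1* without P5 replicate 2 or P8 replicate 1 (0.0659 and 0.061). The 2 members that passed with P8 replicate 3 alone were *Eln* and *Efemp1*.

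The chains of type III and type I collagen, the abundant fibrillar collagens, rose too. *Col3a1*, the major chain of type III collagen, was at 1551, 1744 and 1583 CPM at P5 and 2436, 2558 and 2498 CPM at P8. The P8 libraries differed little among themselves and were all above P5, with a log2 fold change of 0.60 ± 0.06 (SE, edgeR FDR = 0.00036) and 0.59 with P8 replicate 3 alone (edgeR FDR = 0.015). *Col1a1* and *Col1a2*, the chains of type I collagen, rose by 0.96 and 0.63 in log2 units (edgeR FDR = 0.0029 and 0.0022), and neither passed with P8 replicate 3 alone (edgeR FDR = 0.072 and 0.059).

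Of 23 collagen chains, 14 passed as higher and none as lower, with a median log2 fold change of 0.40, and 16 had every P8 library above every P5 library. Only 5 passed whichever of the 6 libraries was omitted and 2 with P8 replicate 3 alone, *Col3a1* and *Col14a1*. *Col14a1*, a collagen of the fibril surface, was at 42.0, 48.8 and 43.6 CPM at P5 and 85.4, 99.6 and 90.0 CPM at P8 (log2 fold change 1.01, edgeR FDR = 0.00094). It passed the FDR throughout, and its log2 fold change fell under the cutoff to 0.99, 0.97 and 0.96 without P5 replicate 1, P5 replicate 3 and P8 replicate 2. The chains of the list called by both cutoffs with the largest fold changes were lower in P8 replicate 3 than in P8 replicates 1 and 2. The part of neighbouring tissue in this order was not tested. *Col5a3* was at 1.57 to 2.65 CPM at P5 and 13.1, 14.8 and 3.83 CPM in P8 replicates 1 to 3, and *Col8a1* was at 1.16 to 1.76 CPM and at 4.93, 5.03 and 2.40 CPM. Their edgeR FDR with P8 replicate 3 alone was 0.56 and 0.39, and *Col5a3* did not pass without P5 replicate 1 (0.0542) or without P8 replicate 2 (0.0535).

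The mesothelium was the list that moved as a whole. All 8 genes tested passed as higher, all with every P8 library above every P5 library, and all 8 passed whichever library was omitted. Of these, 6 passed with P8 replicate 3 alone, and the median log2 fold change of the list was 1.57, against 1.59 with P8 replicate 3 alone. *Upk3b*, a uroplakin that marks mesothelium, was at 53.2, 46.8 and 31.9 CPM at P5 and 130, 138 and 144.5 CPM at P8. The groups did not overlap and P8 replicate 3 was the highest library, with a log2 fold change of 1.62 ± 0.16 (SE, edgeR FDR = 0.00036, and 0.014 with P8 replicate 3 alone).

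*Lrrn4*, a membrane protein of mesothelial cells, was at 10.4, 9.29 and 6.33 CPM at P5 and 35.1, 39.6 and 35.5 CPM at P8 (log2 fold change 2.06, edgeR FDR = 0.00036). *Wt1*, the transcription factor that marks mesothelial progenitors, rose from between 1.56 and 2.60 CPM to between 6.57 and 7.53 CPM (log2 fold change 1.72, edgeR FDR = 0.0012). *Gpm6a* and *Aldh1a2*, the latter an enzyme of retinoic acid synthesis, rose by 1.35 and 1.51 in log2 units. *Msln*, the gene of mesothelin, rose by 1.65 with all P8 libraries (edgeR FDR = 0.0076) and was at 304 CPM in P8 replicate 3, where its log2 fold change was 1.75 (edgeR FDR = 0.079). *Krt19*, a keratin of mesothelium and airway, was over the fold change cutoff at 1.07 and just under it at 0.996 without P5 replicate 3. Within P5 the summed CPM of the list was 314, 287 and 222, lowest in replicate 3, the P5 library with the most skeletal muscle and fat RNA. The P8 sums were 759, 774 and 762 CPM, while the sums of the neighbouring tissues differed more within P8. The part of dissection in the P5 and P8 sums of the mesothelium was not tested.

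The complement genes *C4b* and *C3* rose by similar amounts in all 3 P8 libraries. *C4b* (ENSMUSG00000073418), a component of the classical complement pathway, was at 7.69, 6.46 and 6.53 CPM at P5 and 52.4, 54.9 and 60.2 CPM at P8. The log2 fold change was 2.996 ± 0.18 (SE, edgeR FDR = 2.1e-05) and 3.09 with P8 replicate 3 alone (edgeR FDR = 0.0021), and reads can be split with its near-identical neighbour *C4a*. *C3*, on which the complement pathways converge, was at 158, 120 and 104 CPM at P5 and 522, 547 and 544 CPM at P8 (log2 fold change 2.06 ± 0.16 SE, edgeR FDR = 6.3e-05). Neither gene overlapped between the groups, and P8 replicate 3 was the highest library for *C4b* and within the range of the other P8 libraries for *C3*.

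Several of the 43 genes called in both fits encode secreted proteins that act on growth factors, and those named here were picked after their values were seen. *Igfbp5*, which binds insulin-like growth factors, was at 255, 289 and 258 CPM at P5 and 635, 656 and 690.3 CPM at P8 (log2 fold change 1.29 ± 0.09 SE, edgeR FDR = 5.1e-05, and 0.0041 with P8 replicate 3 alone). *Igfbp6*, which prefers IGF2, was at 13.3 to 15.3 CPM and at 42.4 to 43.9 CPM (log2 fold change 1.56, edgeR FDR = 0.0014). The P8 values of both genes lay close together and well clear of P5.

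*Rspo1*, a secreted amplifier of Wnt signalling, was at 7.10, 7.25 and 6.77 CPM at P5 and 17.5, 16.1 and 17.4 CPM at P8 (log2 fold change 1.25, edgeR FDR = 5.9e-05). *Sfrp2*, a secreted Wnt-binding protein, rose from between 10.96 and 17.8 CPM to between 42.1 and 58.9 CPM (log2 fold change 1.69, edgeR FDR = 0.00036). *Sulf1*, which trims sulfate from the heparan sulfate chains that hold growth factors, and *Podn*, a small leucine-rich proteoglycan, rose by 1.17 and 1.61 in log2 units. *Aebp1*, a collagen-binding protein, rose by 1.12 and was at 0.99 without P5 replicate 3. All 5 of these genes were called with P8 replicate 3 alone, with edgeR FDR values of 0.0045 for *Rspo1*, 0.018 for *Sfrp2*, 0.011 for *Sulf1*, 0.013 for *Podn* and 0.011 for *Aebp1*.

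**Figure D3:**
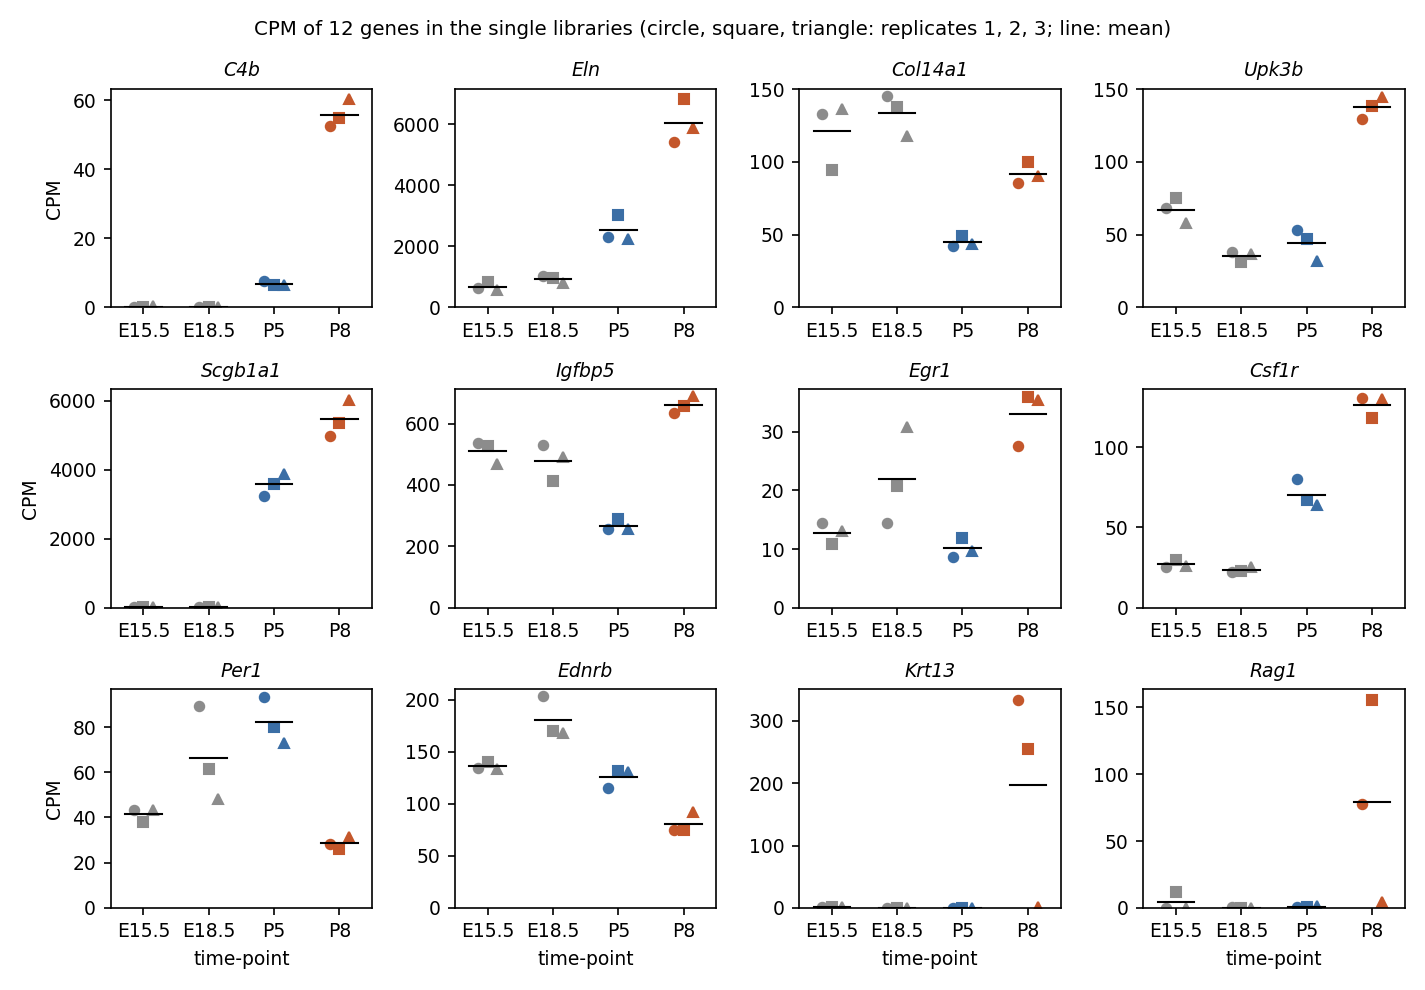
CPM of 12 genes in single libraries at the 4 time-points, on axes that start at 0, with the replicate as the symbol and the mean as a line. *C4b*, *Eln*, *Upk3b*, *Igfbp5*, *Egr1* and *Csf1r* are higher at P8 in all 3 replicates, and *Per1* and *Ednrb* are lower. *Krt13* and *Rag1* are high in P8 replicates 1 and 2, with P8 replicate 3 far below them and still above P5.

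The club cell genes that passed the test were higher at P8. Of 10 genes of club and secretory cells, 6 passed as higher and none as lower, all 6 whichever library was omitted, and 1 passed with P8 replicate 3 alone. That gene was *Scgb1a1*, the club cell secretory protein, at 3241, 3597 and 3878 CPM at P5 and 4972, 5360 and 6029 CPM at P8. The groups did not overlap, P8 replicate 3 was the highest, and the log2 fold change was 0.59 ± 0.08 (SE, edgeR FDR = 0.0015, and 0.013 with P8 replicate 3 alone).

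*Cyp2f2*, a cytochrome P450 of club cells, was level across P8 at 389, 456 and 416 CPM against 148, 193 and 161 CPM at P5 (log2 fold change 1.31, edgeR FDR = 0.0031, and 0.057 with P8 replicate 3 alone). The secreted defence proteins of the upper airway were not level. *Bpifb1*, which was not on the list and was among the 43 genes called in both fits, was at 13.8, 18.6 and 7.63 CPM at P5 and 172, 215 and 77.2 CPM at P8. *Bpifa1* was at 0.642 to 2.68 CPM at P5 and 41.2, 46.1 and 14.4 CPM at P8, *Pigr*, the carrier of secretory antibodies, at 1.53 to 2.79 and then 16.9, 17.7 and 3.19 CPM, and *Ltf*, lactoferrin, at 8.54 to 16.2 and then 227, 209 and 17.8 CPM. For these genes P8 replicate 3 lay above P5 and far below the other P8 libraries. Members that did not pass varied within P5 too. *Reg3g* was at 2.78, 83.6 and 32.3 CPM at P5 and 204, 206 and 25.7 CPM at P8. *Scgb3a1* was at 8.8, 148 and 82.0 CPM and then 293, 313 and 70.3 CPM. *Muc5b* was at 1.96, 31.1 and 13.2 CPM and then 64.5, 73.2 and 14.7 CPM. In each, P8 replicate 3 lay within the P5 range. *Scgb3a2*, which did not pass either, was above P5 in every P8 library. *Chia1*, an acid chitinase, was the opposite case, with its highest value, 38.1 CPM, in P8 replicate 3 and 32.4 and 30.03 CPM in the others, against 14.2 to 19.6 CPM at P5. Its log2 fold change of 1.01 was 0.99, 0.89 and 0.90 without P5 replicate 1, P5 replicate 3 and P8 replicate 3.

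Ciliated cell genes were higher at P8 in most members, close to the limit of the test. Of 11 tested, 10 had every P8 library above every P5 library and 6 passed as higher, but 1 passed whichever library was omitted and none with P8 replicate 3 alone. *Foxj1*, the master regulator of motile cilia, was at 33.1, 40.01 and 34.8 CPM at P5 and 72.3, 80.5 and 59.0 CPM at P8 (log2 fold change 0.96, edgeR FDR = 0.032), and its edgeR FDR was 0.0931, 0.0722, 0.106, 0.0895 and 0.104 without P5 replicates 1, 2 and 3 and P8 replicates 1 and 2. *Tekt1*, a protein of the ciliary axoneme, was at 4.38 to 5.64 CPM at P5 and 7.29, 10.8 and 10.9 CPM at P8, and it passed whichever library was omitted (log2 fold change 0.98, edgeR FDR = 0.0074, and 0.053 with P8 replicate 3 alone). The summed CPM of the list was 232 to 284 at P5 and 375, 427 and 366 at P8, so replicate 3 was the lowest of the P8 libraries and still above P5.

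Immediate early genes, which are switched on within minutes of a stimulus to a cell, were higher at P8 in part. Of 14 tested, 6 passed as higher and 1 as lower, 5 and 1 whichever library was omitted, and 4 higher with P8 replicate 3 alone. *Egr1*, a zinc finger transcription factor, was at 8.69, 11.9 and 9.70 CPM at P5 and 27.6, 35.9 and 35.5 CPM at P8. It did not overlap between the groups (log2 fold change 1.69 ± 0.22 SE, edgeR FDR = 0.0012, and 0.021 with P8 replicate 3 alone). *Dusp1*, a phosphatase that ends MAP kinase signals, was at 38.4, 42.2 and 42.7 CPM at P5 and 72.9, 82.4 and 96.6 CPM at P8 (log2 fold change 1.01, edgeR FDR = 0.0014). *Ccn1*, a matricellular protein, was at 46.2, 53.8 and 51.1 CPM and then at 92.4, 100.8 and 117 CPM (log2 fold change 1.02, edgeR FDR = 0.0012). Both had their highest value in P8 replicate 3, passed the test with that library alone (edgeR FDR = 0.015 for each), and fell under the fold change cutoff without P5 replicate 1 (0.98 for each) or without P8 replicate 3 (0.89 and 0.92). *Nr4a1*, a nuclear receptor, rose by 0.60 (edgeR FDR = 0.0072, and 0.029 with P8 replicate 3 alone), and *Fos* by 0.97 (edgeR FDR = 0.0031, and 0.059 with P8 replicate 3 alone).

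The promoters of some members of this list and of the clock list hold short motifs of signal-dependent transcription. The stretches below are 30 bases of promoter on the strand of the gene, taken from RefSeq on build GRCm38.p6, and are shown because they hold a cAMP response element (TGACGTCA) or an E-box (CACGTG), the elements through which cAMP signalling and the clock act. Capitals mark these motifs, both of which read the same on either strand. *Dusp1* is at chr17:26508589-26508618 on the minus strand, *Btg2* at chr1:134079303-134079332 on the minus strand and *Per1* at chr11:69098771-69098800 on the plus strand.
Dusp1: gggTGACGTCAccgcccggtCACGTGtctg
Btg2: gttcccaataaTGACGTCAgtgagcgatga
Per1: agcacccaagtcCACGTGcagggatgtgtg
Of 32851 promoters, 1.79% held the first motif and 7.15% the second. Of 11 immediate early genes with a promoter in RefSeq, 2 held the cAMP response element, *Btg2* and *Dusp1*, and 2 the E-box. Of 16 clock genes 5 held the E-box and 1 the cAMP response element. A gene was counted if any of its promoters held the motif, while the percentages are per promoter, so they are not directly comparable. *Btg2*, an antiproliferative gene, was at 120, 117 and 131 CPM at P5 and 98.3, 109.9 and 103.1 CPM at P8, a fall where *Dusp1* rose (log2 fold change -0.26, edgeR FDR = 0.011, and 0.12 with P8 replicate 3 alone). A match of letters is given as a description of the promoter only.

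*Per1*, a repressor of the circadian clock that also responds to glucocorticoids, was the most abundant of the 14 genes called lower. It was at 93.3, 79.9 and 73.1 CPM at P5 and 28.1, 26.1 and 31.4 CPM at P8. The lowest P5 library was over 2-fold above the highest P8 library, with a log2 fold change of -1.55 ± 0.19 (SE, edgeR FDR = 0.00094), and it was -1.42 with P8 replicate 3 alone (edgeR FDR = 0.053). Of 18 clock genes, 1 passed as higher and 1 as lower, and of 15 genes of the glucocorticoid response 1 passed as higher, *Dusp1*, and 2 as lower, *Per1* among them. The labels give no hour of collection.

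The other genes called lower were weakly expressed. *Slc10a6*, a transporter of sulfated steroids, was at 3.80 to 6.00 CPM at P5 and 1.05 to 1.56 CPM at P8 (log2 fold change -1.94, edgeR FDR = 0.020), and it did not pass without P5 replicate 1 (0.0669) or P8 replicate 2 (0.0687). *Cyp1a1*, a cytochrome P450 induced through the aryl hydrocarbon receptor, was at 1.79 to 2.52 and at 0.506 to 0.944 CPM (log2 fold change -1.57, edgeR FDR = 0.017), and it did not pass without P5 replicates 1 or 2 or P8 replicate 2 (0.0593, 0.0547 and 0.0622). The transcript *Gm2115* was the only one called lower with P8 replicate 3 alone as well, at 5.47 to 6.50 CPM at P5 and at 2.60 to 2.67 CPM at P8. The antisense transcript *Chrna1os* fell from between 1.65 and 2.35 CPM to between 0.513 and 0.953 CPM, with the strand of its reads unknown.

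Some macrophage genes passed as higher at P8. Of 14 genes of interstitial macrophages and monocytes, 6 passed as higher and 1 as lower, 3 and 1 whichever library was omitted, and 1 with P8 replicate 3 alone. That was *Csf1r*, the receptor for the main macrophage growth factor, at 80.3, 67.3 and 63.8 CPM at P5 and 131, 118 and 130 CPM at P8. All P8 libraries were above all P5 libraries, with a log2 fold change of 0.82 ± 0.11 (SE, edgeR FDR = 0.0012, and 0.026 with P8 replicate 3 alone). *Cx3cr1*, the fractalkine receptor of monocytes, followed and rose in every P8 library (log2 fold change 0.80, edgeR FDR = 0.0071).

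*C1qa*, of the first complement component and made by tissue macrophages, was at 29.1 and 30.9 CPM in P8 replicates 1 and 2 and at 19.4 CPM in replicate 3, against 14.5 to 16.4 CPM at P5 (edgeR FDR = 0.0068, and 0.25 with P8 replicate 3 alone). *Lyve1*, a hyaluronan receptor that a subset of these macrophages shares with lymphatic vessels, was the member that fell, from between 267 and 309 CPM to 194, 187 and 252 CPM (log2 fold change -0.49, edgeR FDR = 0.0082). Of 16 genes of alveolar macrophages, 3 passed as higher and none as lower. *Itgax* and *Siglecf* of this list did not pass (log2 fold change 0.46 and 0.10, edgeR FDR = 0.34 and 0.85). *Chil3*, a chitinase-like protein, was at 14.3, 12.5 and 8.20 CPM at P5 and 48.1, 37.6 and 22.5 CPM at P8 (log2 fold change 1.61, edgeR FDR = 0.0042, and 0.14 with P8 replicate 3 alone). *Marco*, a scavenger receptor, was at 21.05, 9.56 and 10.98 CPM and at 37.3, 27.5 and 30.8 CPM (log2 fold change 1.18, edgeR FDR = 0.021), and it did not pass without P5 replicates 2 or 3 or P8 replicate 1 (0.0856, 0.0933 and 0.0814). For the neutrophils, 2 of 10 genes passed, and their summed CPM of 362 and 308 in P8 replicates 1 and 2 fell to 92.6 in replicate 3, within the P5 range of 81.8 to 100.1. *Ltf*, on this list too, made up 227 and 209 CPM of the sums in P8 replicates 1 and 2, and the neutrophil markers *S100a8* and *S100a9* did not pass, with log2 fold changes of 0.10 and -0.01. No tested gene of B cells (11 genes), MHC class II presentation (10), natural killer cells (3), mast cells (7), erythroid cells (13) or platelets (6) passed by edgeR. At an unadjusted p under 0.05 there were 1, 1, 0, 0, 2 and 1 in these lists, and DESeq2 passed 0, 1, 0, 0, 1 and 1.

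Genes of the capillary, of alveolar myofibroblasts and of pericytes that passed the test were lower at P8, and none of them passed with P8 replicate 3 alone. Of 14 capillary genes, 4 passed as lower and none as higher, 1 of them whichever library was omitted. *Car4*, which marks the large capillary cells, did not fall (log2 fold change -0.046, edgeR FDR = 0.86). It was at 65.0, 66.1 and 64.2 CPM at P5 and 62.8, 58.9 and 69.7 CPM at P8, which overlap. *Ednrb*, the endothelin receptor of the large capillary cells, was at 115, 131 and 130 CPM at P5 and 74.4, 74.7 and 91.6 CPM at P8. The groups did not overlap (log2 fold change -0.66 ± 0.09 SE, edgeR FDR = 0.0016), and P8 replicate 3 lay between the other P8 libraries and P5 (log2 fold change -0.48, edgeR FDR = 0.072). *Emcn*, an endothelial sialomucin, was at 75.0 to 80.3 CPM and then at 57.0, 56.2 and 71.1 CPM (edgeR FDR = 0.013), and it did not pass without P8 replicate 1 (0.0583) or P8 replicate 2 (0.056). Of 14 genes of VEGF and angiopoietin signalling, only *Angpt1*, the ligand that steadies vessels through the receptor Tie2, passed, as lower (log2 fold change -0.60, edgeR FDR = 0.0038, and 0.12 with P8 replicate 3 alone). *Vegfa* was at 269.5, 331 and 320.0 CPM at P5 and 311, 319 and 428 CPM at P8, which overlap (log2 fold change 0.18 ± 0.14 SE, edgeR FDR = 0.38).

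Of 14 genes of alveolar myofibroblasts and smooth muscle, 3 passed as lower. *Acta2*, smooth muscle actin, was near its P5 level (log2 fold change -0.02, edgeR FDR = 0.88). *Pdgfra*, the receptor that marks the myofibroblast lineage, was at 144, 148 and 151 CPM at P5 and 92.9, 109.5 and 119 CPM at P8 (log2 fold change -0.48, edgeR FDR = 0.0066, and 0.20 with P8 replicate 3 alone). *Hhip*, the decoy receptor of hedgehog ligands, and *Aspn*, a small proteoglycan, fell by 0.59 and 0.50 in log2 units (edgeR FDR = 0.012 and 0.032). Without P8 replicate 2 *Hhip* was at an edgeR FDR of 0.0572, and *Aspn* did not pass without P5 replicates 2 or 3 or P8 replicates 1 or 2 (0.0955, 0.108, 0.109 and 0.108). The fall of these genes stood beside the rise of *Eln*, which the same lineage makes. Of 9 pericyte genes, 2 passed as lower and none as higher. Of 14 genes of lipofibroblasts and matrix fibroblasts, 2 passed as higher and 3 as lower. The lower ones were *Tcf21* and *Wnt2*, a transcription factor and a ligand of the lung mesenchyme, and *Gyg*, the primer of glycogen synthesis, with log2 fold changes of -0.45, -0.33 and -0.42. The calls were lost without single libraries, among them P8 replicate 2 (edgeR FDR = 0.10, 0.0597 and 0.0518), and for *Tcf21* also without P5 replicates 1 or 3 or P8 replicate 1 (0.0838, 0.0677 and 0.0724) and for *Wnt2* without P5 replicate 1 (0.0602).

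Among the lung lists, those of the gas exchange epithelium had no member that passed. None of 12 AT1 genes and none of 12 AT2 genes passed by edgeR, 0 and 2 of them, the latter lower, had an unadjusted p under 0.05, and DESeq2 passed 0 and 2. The lists had median log2 fold changes of 0.00040 and -0.18. *Pdpn*, a surface protein of AT1 cells, was at 65.7, 68.8 and 55.4 CPM at P5 and 67.5, 67.7 and 83.0 CPM at P8. *Sftpc*, the surfactant protein specific to AT2 cells, was at 13186, 12039 and 11618 CPM at P5 and 10419, 9644 and 11719 CPM at P8. Both overlapped between the groups, and both were highest within P8 in replicate 3, the P8 library with the lowest summed CPM of every neighbouring tissue except liver. The summed CPM of the AT1 list was 4700 and 4501 in P8 replicates 1 and 2 and 5565 in replicate 3, and of the AT2 list 17326, 16352 and 19422. The same order held for the capillary list, at 2576, 2511 and 3076 CPM in P8 replicates 1 to 3 against 3038 to 3268 CPM at P5. The RNA of other tissues in P8 replicates 1 and 2 thus moved with these values, and its part in them was not tested.

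**Figure D4:**
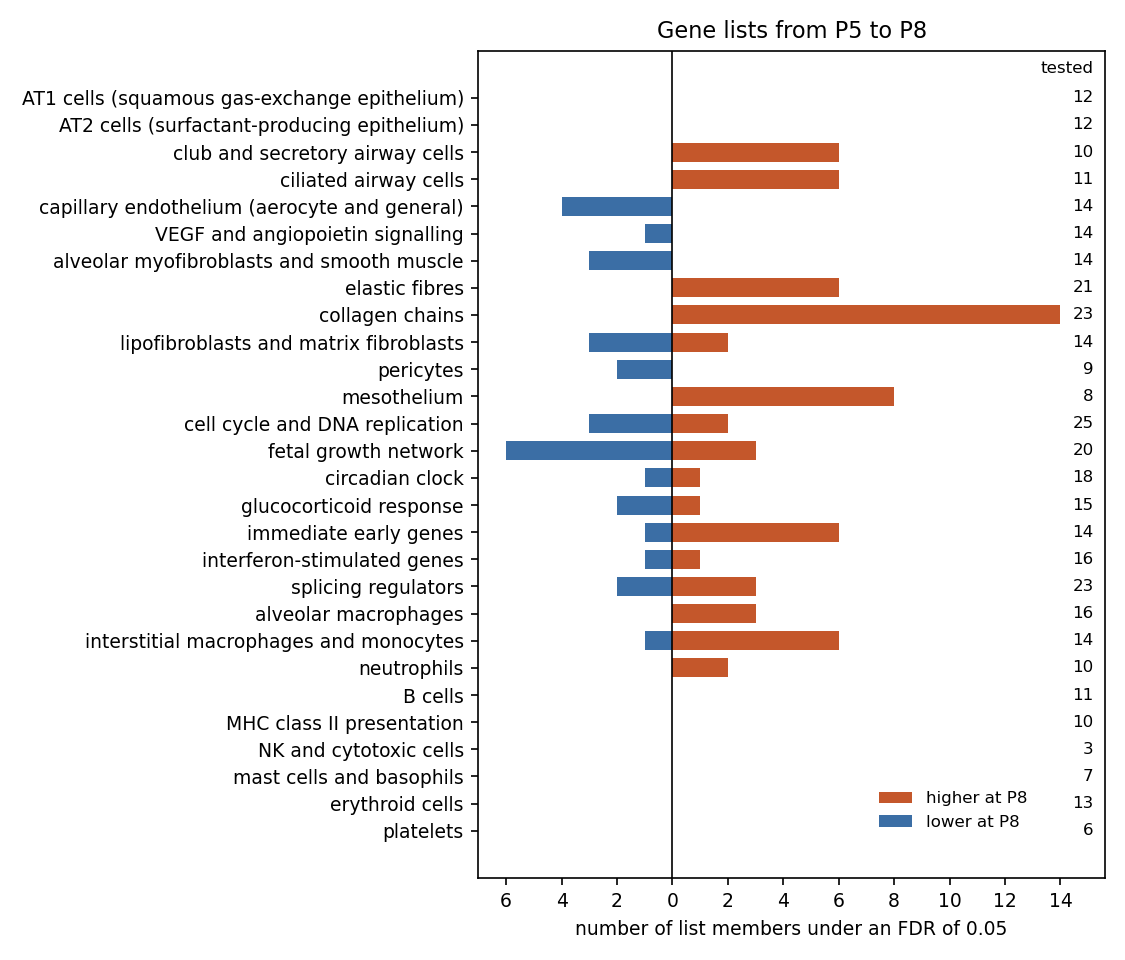
Number of genes in each lung and blood cell list, without the neighbouring tissues, under an edgeR FDR of 0.05 from P5 to P8, higher to the right and lower to the left, with the number tested at the right edge. Collagen chains (14 of 23) and mesothelium (8 of 8) reach furthest to the right, and the fetal growth network (6 of 20) and capillary endothelium (4 of 14) furthest to the left.

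The fetal growth network, imprinted and oncofetal genes that are high before birth and decline after it, moved both ways. Of 20 tested, 6 passed as lower and 3 as higher, 5 and 2 whichever library was omitted, and 2 and 2 with P8 replicate 3 alone. *Mest*, an imprinted gene expressed from the paternal allele, was at 347, 338 and 310 CPM at P5 and 233, 221 and 213 CPM at P8 (log2 fold change -0.59 ± 0.08 SE, edgeR FDR = 0.0019, and 0.029 with P8 replicate 3 alone). *Dlk1*, an imprinted Notch ligand-like protein, was at 105, 131 and 117 CPM and then 94.1, 83.1 and 82.5 CPM (log2 fold change -0.46, edgeR FDR = 0.0061, and 0.042 with P8 replicate 3 alone). In both, P8 replicate 3 was the lowest library.

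*Hmga2*, a chromatin protein of fetal cells, *Plagl1*, an imprinted zinc finger factor, and *Igf1*, the growth factor, fell by 0.71, 0.40 and 0.32 in log2 units (edgeR FDR = 0.012, 0.0051 and 0.0041). *Gpc3*, a heparan sulfate proteoglycan that restrains growth, was at 256, 263 and 233 CPM at P5 and 339, 329 and 413 CPM at P8 (log2 fold change 0.50, edgeR FDR = 0.0044, and 0.015 with P8 replicate 3 alone). *Igf2*, the fetal growth factor itself, was at 93.0, 97.5 and 107 CPM at P5 and 237, 199 and 97.9 CPM at P8, so that P8 replicate 3 was within the P5 range. Its log2 fold change of 0.84 (edgeR FDR = 0.036) was -0.04 with P8 replicate 3 alone (edgeR FDR = 0.92), and its edgeR FDR was between 0.0872 and 0.146 without any of P5 replicates 1, 2 and 3 or P8 replicates 1 and 2. The direction thus rested on P8 replicates 1 and 2.

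Among the abundant genes with the largest falls, *Stbd1*, which tethers glycogen to membranes, was at 136, 125 and 135 CPM at P5 and 74.8, 70.1 and 88.9 CPM at P8 (log2 fold change -0.78, edgeR FDR = 0.00036, and 0.020 with P8 replicate 3 alone). *Fli1*, an ETS factor of endothelial and blood cells, was at 58.5, 60.2 and 66.9 CPM and then 35.3, 37.0 and 39.6 CPM (log2 fold change -0.75, edgeR FDR = 0.00036, and 0.021 with P8 replicate 3 alone). *Rgs2*, a brake on G protein signalling, fell by 0.72 (edgeR FDR = 0.00075, and 0.042 with P8 replicate 3 alone). These 3 genes were lower in every P8 library, replicate 3 included, with every P8 value under every P5 value.

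Of the others, *Npr3*, the clearance receptor of natriuretic peptides, and *Fat3*, an atypical cadherin, each fell by 0.70, and *Vcan*, the proteoglycan versican, by 0.73 (edgeR FDR = 0.0076, 0.012 and 0.017). With P8 replicate 3 alone the falls were smaller, with log2 fold changes of -0.46, -0.64 and -0.62. *Vcan* did not pass without P5 replicate 3 or P8 replicates 1 or 2 (0.0592, 0.0618 and 0.0616). *Hapln1*, which links hyaluronan to versican-like proteoglycans, was at 19.99, 19.84 and 19.03 CPM at P5 and 11.4, 13.4 and 13.4 CPM at P8 (log2 fold change -0.64, edgeR FDR = 0.00036, and 0.021 with P8 replicate 3 alone). *Hapln1* was also on the cartilage list, where 5 other genes passed as higher.

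Of 16 interferon-stimulated genes, 1 passed as higher and 1 as lower. With all P8 libraries, cell cycle genes were near their P5 level. Of 25 tested, 2 passed as higher and 3 as lower, with a median log2 fold change of 0.01. The median was -0.15 with P8 replicate 3 alone. With the thymocyte level as a covariate in the fit, 5 passed as lower and none as higher. *Cdk1*, the kinase that drives mitosis, was at 61.6, 65.8 and 70.5 CPM at P5 and 55.4, 60.8 and 49.1 CPM at P8 (log2 fold change -0.28, edgeR FDR = 0.026, and 0.030 with P8 replicate 3 alone), and it did not pass without P5 replicate 3 (0.0703). *Mcm2*, of the replicative helicase, was at 67.3 to 72.3 CPM at P5 and at 87.1, 97.2 and 78.1 CPM at P8 (edgeR FDR = 0.016), and it did not pass without P5 replicate 3 or P8 replicates 1 or 2 (0.0655, 0.0539 and 0.0635). P8 replicate 3 had the lowest summed CPM of this list, 1511, against 1658 and 1930 in P8 replicates 1 and 2 and 1583 to 1725 at P5. Thymocytes are a dividing population, and the part of their RNA in this order was not tested.

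The largest fold changes of called genes were mostly those of squamous epithelium, thymus and liver. *Krt13*, a keratin of the oesophageal lining, was at 0.0161, 0.0207 and 0.0822 CPM at P5 and 334, 256 and 0.888 CPM at P8. *Krt4*, its partner keratin, was at 0.599 to 0.805 CPM and at 370.1, 278 and 2.25 CPM. Both belong to the set of 401, since P8 replicate 3 was also above every P5 library, although the mean of replicates 1 and 2 was 332 times and 144 times the value of replicate 3. *Krt15*, a basal cell keratin, was at 3.85, 9.48 and 6.35 CPM and at 171, 149 and 9.42 CPM, and *Pkp1*, a desmosome protein, was at 19.8, 17.9 and 0.0986 CPM in the P8 libraries. Both fell in the set of 59, P8 replicate 3 being at or under the highest P5 library.

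*Rag1*, which cuts antigen receptor genes in thymocytes, was at 0.466, 0.475 and 1.003 CPM at P5 and 77.8, 156 and 4.19 CPM at P8 (log2 fold change 6.89, edgeR FDR = 0.013, and 0.42 with P8 replicate 3 alone), and it did not pass without P5 replicate 3 (0.0508). *Cd8a*, the T cell co-receptor, was at 1.65 to 2.94 CPM and at 33.0, 59.5 and 3.24 CPM, and *Prss16*, a protease of the thymic cortex, at 0.305 to 0.460 CPM and at 20.7, 36.7 and 1.02 CPM. *Prss16* did not pass without P5 replicate 2 (edgeR FDR = 0.0506) or P5 replicate 3 (0.0542). *Rag2*, the partner of *Rag1*, was in the set of 59 with 3.86, 7.29 and 0.115 CPM in the P8 libraries, and it did not pass without P5 replicates 1, 2 or 3 (0.104, 0.127 and 0.124). Of 16 thymocyte genes, 13 passed as higher and 12 were called, and 5 of 7 thymic epithelium genes, 5 of 6 squamous epithelium genes, 5 of 12 cartilage genes, 3 of 7 nerve genes and 1 of 8 fat genes passed as higher. None of 19 skeletal muscle and 17 cardiac muscle genes passed by edgeR, with 3 and 0 at an unadjusted p under 0.05 and 1 and 0 by DESeq2. *Col2a1*, the collagen of cartilage, was at 53.6, 93.7 and 4.27 CPM at P8 against 4.24 to 11.5 CPM at P5. *Col2a1* did not pass without P5 replicates 1 or 3 or P8 replicates 1 or 2 (0.0853, 0.0905, 0.0611 and 0.102).

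Liver genes differed from these in the order of the P8 libraries, with replicate 3 above replicate 1. *Alb*, albumin, was at 1.56, 1.67 and 2.24 CPM at P5 and 7.31, 70.7 and 22.7 CPM at P8, with P8 replicate 2 the highest and replicate 1 the lowest of the group. The edgeR FDR of *Alb* was 0.0043, and its log2 fold change was 3.61 with P8 replicate 3 alone (edgeR FDR = 0.015). *Afp*, alpha-fetoprotein, was at 0.248 to 0.546 CPM and at 1.19, 16.3 and 5.60 CPM, and *Ahsg*, fetuin, at 0.124 to 0.411 CPM and at 3.12, 26.7 and 10.9 CPM. Of 12 liver genes tested, 8 passed as higher, and the order of the P8 libraries was the same in *Alb*, *Afp* and *Ahsg*. The 43 genes called in both fits thus include 3 of the liver list, *Alb*, *Afp* and *Itih2*, a hyaluronan-binding serum protein, with log2 fold changes of 4.17, 4.21 and 1.94.

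The embryonic libraries, which the split did not use, held a library with raised thymus genes. E15.5 replicate 2 summed to 70.8 CPM for thymic epithelium against 7.07 and 9.11 CPM in E15.5 replicates 1 and 3, and *Rag1* was at 11.97 CPM in it against 0.242 and 0.157 CPM. Squamous epithelium genes summed to 32.1 CPM in it against 11.4 and 8.79 CPM. Fat genes (2.71 against 3.39 and 1.97 CPM) and cartilage genes (258 against 261 and 269 CPM) were not above both other libraries. This library had *Xist* at 3.13 CPM and *Ddx3y* at 73.8 CPM, unlike P8 replicates 1 and 2. Of the set of 59, 13 genes (22.03%) were over 2-fold higher in E15.5 replicate 2 than in both other E15.5 libraries. The share was 10.7% of the set of 401 (43 genes), 2.33% of the 43 genes called in both fits (1 gene) and 1.96% of all genes tested (313 genes). E15.5 replicate 2 is the library with raised thymus genes, and these shares were not counted for E15.5 replicates 1 and 3. They describe that library only, and their cause was not tested.

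Before birth, the 43 genes called in both fits fell into groups. For 26 of them the P5 mean was above the highest E18.5 library, as for *Eln*, which was at 790 to 1037 CPM at E18.5, and for *C3*, at 2.45 to 3.80 CPM. For 13 of them the P5 mean was under the lowest E18.5 library, so that P5 was a low point between E18.5 and P8. Over all 15994 genes tested the P5 mean was above the highest E18.5 library in 6292 and under the lowest in 7658. The latter was a larger share than among the 43, but over all genes it sets no condition on P8. Low points between E18.5 and P8 were thus not counted over all genes. The 13 were *Wt1*, *Aldh1a2*, *Egr1*, *Sfrp2*, *Igfbp5*, *Rspo1* and 7 others. *Igfbp5* was at 413 to 530.0 CPM at E18.5, at 255 to 289 CPM at P5 and at 635 to 690.3 CPM at P8, and *Rspo1* at 11.7 to 13.4, 6.77 to 7.25 and 16.1 to 17.5 CPM. For 32 of the 43 every P8 library was above every embryonic library, against 4862 of all 15994 genes. The 43 were picked for high values at P8, so this difference follows in part from how they were picked.

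Few splicing events were called between P5 and P8. The share of transcripts that include an alternative sequence (percent spliced in, PSI) was compared for 331318 events by the lower bound of the difference at a probability of 0.95 over pairs of libraries matched by replicate number, with an event called differential (DAS) at a bound of 10%. This gave 16 events (0.00483%), 8 higher and 8 lower, and over all 9 pairs of P5 and P8 libraries it gave 10 events, 9 of them among the 16. The count rose with fewer libraries, to 63, 71 and 58 events without replicate 1, 2 or 3 in both groups and to 198 with P8 replicate 3 alone. In 14 of the 16 the groups did not overlap, and 11 were also called with P8 replicate 3 alone. The sites of 1 splice choice are counted separately: *Ahcyl1*, a regulator of calcium release, holds 4 of the events in 2 linked pairs, and *Amotl1*, a junction protein, and *Slu7*, a splicing factor, hold 1 linked pair each.

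*Clk1* encodes a kinase that phosphorylates splicing factors. The PSI of its exon was 73.7%, 63.5% and 71.9% at P5 on 278 to 404 reads and 43.5%, 47.8% and 45.6% at P8 on 132 to 255 reads. The P8 libraries lay within a few points of each other and far under P5. The exon of *Mtss1l*, which binds actin and membranes, was included at 48.7%, 46.5% and 49.8% at P5 and 18.49%, 32.1% and 20.7% at P8. The exon of *Suco*, which takes part in collagen secretion in bone, was included at 30.9%, 33.3% and 31.5% at P5 and 55.0%, 59.4% and 63.6% at P8, on 47 to 110 reads. Its inclusion was 0% to 21.5% in the E15.5 and E18.5 libraries, below every P5 library.

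The intron of *Rapgef5*, an activator of Rap proteins, was the event called over all 9 pairs and not over matched pairs, retained at 73.8%, 83.5% and 83.0% at P5 and 61.8%, 53.6% and 58.3% at P8. The intron of *Pigl*, an enzyme of the GPI anchor pathway, was retained at 65.1%, 60.8% and 64.3% at P5, while P8 gave 30.7%, 25.8% and 40.2%. For *Amotl1* the groups overlapped: 1 of its 5′ splice sites was used at 40.6%, 0% and 30.6% at P5 and at 62.0%, 39.2% and 66.9% at P8, and it was not called over all 9 pairs. The 5′ sites of *Ahcyl1* were not level within P8, with 75.9%, 82.7% and 100% for the same site after 43.2%, 55.9% and 59.6% at P5. Exons in *Ktn1* and *C330018D20Rik*, a 5′ site of *Taf6* and an exon with no gene assigned, MmuEX1000029, made up the rest of the 16, the last with 36.2% to 72.6% at P5 on 37 to 40 reads.

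**Figure D5:**
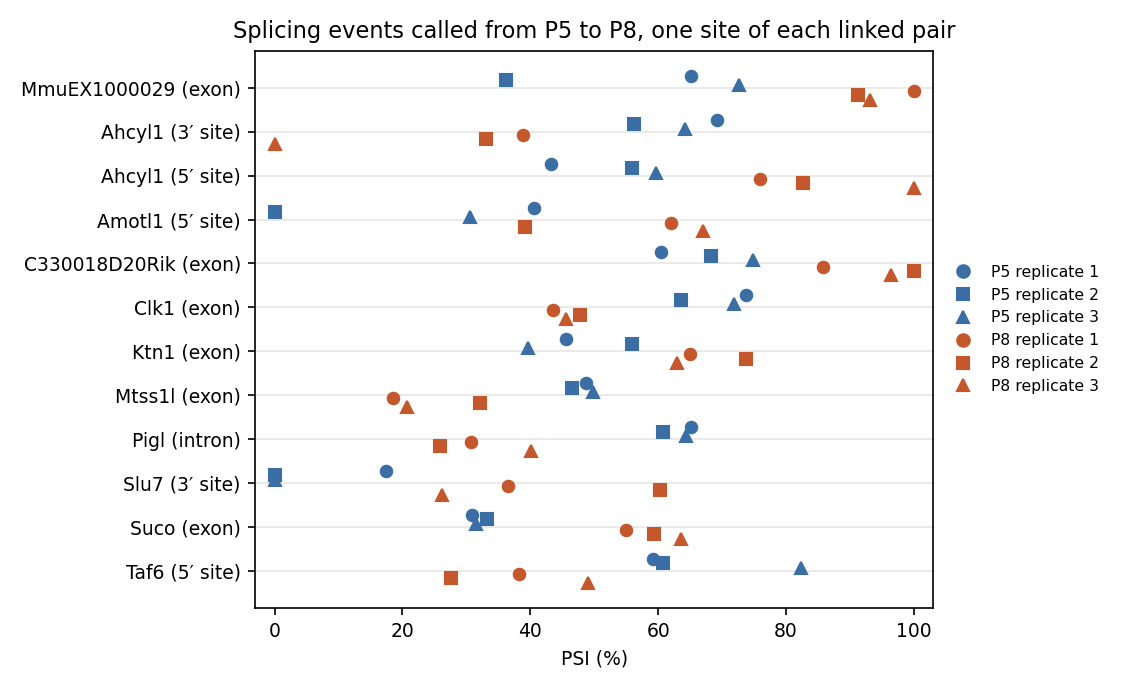
PSI in percent of 12 called splicing events, with 1 site drawn for each linked pair, in the 3 P5 libraries (blue) and the 3 P8 libraries (orange), with the symbol giving the replicate. *Clk1*, *Mtss1l*, *Pigl* and *Taf6* shift to lower PSI and *Suco* and *Ktn1* to higher PSI without overlap, while the sites of *Amotl1* overlap.

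Outside the called events, the PSI of events with a mean of 5% to 95% moved in small steps. Of 4422 such exons, every P8 library was above every P5 library in 330 (7.46%) and below in 205 (4.64%). Of 4026 retained introns, 168 were above (4.17%) and 290 below (7.2%), and for introns P8 replicates 1 and 2 stood together. In 379 introns only these were below all P5 libraries, against 162 for replicates 1 and 3 and 169 for replicates 2 and 3. The mean PSI of these introns was 13.9%, 15.1% and 15.47% at P5 and 13.4%, 13.8% and 16.1% at P8. P8 replicate 3 thus had the highest mean retention and P8 replicate 1 the lowest, and the groups overlapped. Alternative 3′ and 5′ splice sites were close to even, with 161 above (4.63%) and 167 below (4.81%) of 3474, and 140 above (5.81%) and 135 below (5.6%) of 2409. Of 23 regulators of tissue-specific splicing, 3 passed as higher and 2 as lower, where 9.75% and 8.21% of all genes tested did. The median log2 fold change of the list was -0.005, and -0.046 with P8 replicate 3 alone. *Elavl4* was the only member called by both cutoffs (log2 fold change 1.54, edgeR FDR = 0.030). It was at 0.124 to 0.164 CPM at P5 and 0.431, 0.686 and 0.230 CPM at P8. *Esrp1* and *Esrp2*, the epithelial splicing regulators, were higher by 0.29 and 0.30 in log2 units (edgeR FDR = 0.032 and 0.010), and *Nova1*, a neuronal one, was at 4.496 to 7.61 CPM at P5 and 3.59 to 3.83 CPM at P8 (edgeR FDR = 0.015). The call of *Esrp2* was lost without P5 replicate 3 (0.0655) and that of *Nova1* without P5 replicate 3 (0.0638) or P8 replicate 2 (0.0535). *Esrp1* did not pass without any of P5 replicates 1, 2 and 3 or P8 replicates 1 and 2, with an edgeR FDR between 0.0613 and 0.135.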

How the data were processed

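RNA of whole mouse lungs was extracted with RNeasy Plus, made into TruSeq libraries and sequenced as paired reads. The authors aligned reads to mm10 with TopHat2 (2.1.1) and Bowtie2 (2.3.4) and deposited HTSeq-count (0.10.0) counts per Gencode gene without normalization. They also deposited CPM (counts scaled to the mapped reads of the library), PSI in percent from VAST-TOOLS, and a text score per event that holds its inclusion and exclusion reads. From the counts, 12 libraries were fitted together with edgeR 4.0.16 (quasi-likelihood, TMM, R 4.3.3) on the genes with at least 1 CPM in 3 libraries, and the P8 minus P5 contrast was adjusted by Benjamini-Hochberg. For splicing, PSI was drawn 2000 times per library from Beta distributions of the deposited reads (prior 1, at least 10 reads with fewer than 3 libraries under it). The deposited values hold no molecular identifiers. Both procedures were run on simulated data. The simulated splicing libraries of a group differed less than those of some called events, such as *Amotl1* and *Ahcyl1*. That run thus gives no error rate for these data. Members and gene lists were chosen with earlier results of these data known, and the 38 lists were not chosen independently of them. The rule for named genes took, among called genes with a mean of at least 1 CPM, the 12 largest rises shared by all P8 libraries, 6 of P8 replicates 1 and 2 only and 12 falls, then up to 4 called members of each list (otherwise 2) with its first 2 members, every DAS event, and 8 abundant genes (at least 20 CPM) each way. Genes called also with P8 replicate 3 alone, the remaining members of lists given in counts, and *C4b*, *C3*, *Igfbp6*, *Rspo1*, *Sfrp2*, *Sulf1*, *Podn* and *Aebp1* were named after their values were seen. Not every gene taken by the rule is named in the text. Left out among others were *Aqp5*, *H19*, *Arntl* and *Clock*, which did not pass by the edgeR FDR. Alternatives were DESeq2 1.42.0, library size scaling, no filter, 6 libraries, a replicate block, a thymocyte covariate (log2 of summed CPM plus 1) and leaving out libraries.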

Additional observations from a re-analysis of the deposited data

How the results depend on the processing

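Of 474 genes called (460 higher, 14 lower), DESeq2 gave 570 (550 and 20), library size scaling 474 (461 and 13), no filter on low counts 492, only the P5 and P8 libraries 496 and the replicate block 414 (401 and 13). With the FDR alone the counts were 2872 (1559 and 1313), and 1460 for genes with every P8 library above and 96 for those above only in P8 replicates 1 and 2. With the thymocyte level as covariate they were 80 (75 and 5), and with P8 replicate 3 as the only P8 library 51 (46 and 5). Leaving out each library in turn gave 198 to 682 genes, 190 to 644 higher and 8 to 38 lower, with 198 without P8 replicate 2 and 682 without P8 replicate 3. Same-numbered replicates of P5 and P8 did not deviate together (correlations -0.08, 0.009 and -0.343), so the block joins samples that share only a number. Of the genes passing the FDR, 54.3% were higher with TMM and 60.6% with library size scaling.

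Among 108 of the genes named above, 3 changed sign: *Igf2* to -0.044 with P8 replicate 3 alone, *Rag2* to -0.69 with the covariate, and *Col2a1* to -0.58 with the covariate and -0.79 with P8 replicate 3 alone. The other 105 kept their direction in each alternative in which they could be tested, which left some out when P8 libraries were dropped or only P5 and P8 were fitted. The lists were refitted in 2 alternatives added after seeing the data. With P8 replicate 3 alone, members passing as higher fell to 1 for club cells, 0 for ciliated cells, 2 for elastic fibres, 2 for collagens and 1 for interstitial macrophages, and as lower to 0 for capillary, 0 for myofibroblasts, 2 for fetal growth, 0 for immediate early genes and 0 for interstitial macrophages. With the covariate the same counts were 3, 0, 3, 6 and 1, and 1, 0, 1, 0 and 0. The 16 DAS events became 10 over all 9 pairs, 51 at a bound of 5%, 2 at 20%, 63, 71 and 58 without replicate 1, 2 or 3 in both groups, 17 to 26 over all pairs of the libraries left when each was omitted, and 198 with P8 replicate 3 alone, the last chosen after seeing the data. With 3 libraries a group from a single litter, the counts above depend on which libraries enter, and why they differ was not tested.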

Other observations

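Ribosomal protein genes, a list added after seeing the data and given without a test of the list, were lower at P8 in many members. Of 77 tested, 34 passed as lower and 4 as higher by the edgeR FDR, and in 40 every P8 library was below every P5 library. Their summed CPM was 23293, 25016 and 26371 in P5 replicates 1 to 3 and 22185, 21387 and 19825 in P8 replicates 1 to 3, lowest in P8 replicate 3. The median log2 fold change was -0.18, and -0.31 with P8 replicate 3 alone.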
